A study of Mus musculus with 9 samples.

Results

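The genes described here make fatty acids from acetyl-CoA and turn them into the desaturated, elongated and esterified lipids of sebum and fat. They were chosen by symbol from a list of 39 genes of fatty acid synthesis, desaturation, elongation, and wax ester and triglyceride formation, and 36 of these were found among the 19505 genes of the table. Scd2, Soat1 and Acsl1 were not found under their symbols and were not analysed here. The tissue was back skin of C57BL/6J mice aged 8 weeks. Hair had been removed and all skin received 5% imiquimod cream daily for 7 days, an agonist of Toll-like receptors that produces a psoriasis-like dermatitis in mice. In the stretch group (IMQ+F, n = 5) a plastic device glued to the skin had been elongated by 10 mm on the first day, and in the no-stretch group (IMQ+N, n = 4) the skin was not under traction. The labels leave unsaid whether a device was also glued to the non-stretched skin, and no array of skin without imiquimod was analysed here. Nor do they state that the 9 samples are 9 different mice; a p-value here therefore measures only the spread among these samples, part of which may be technical. Values are log2 expression values from Affymetrix arrays, and a change is the stretch mean minus the no-stretch mean on that scale.

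In fatty acid synthesis, citrate is cleaved to acetyl-CoA by ATP citrate lyase, acetyl-CoA is carboxylated to malonyl-CoA, and fatty acid synthase joins these units into palmitate with NADPH supplied in part by malic enzyme. Elongases and desaturases then lengthen the chain and place double bonds, and acyltransferases attach the products to glycerol, to fatty alcohols or to sterols. In skin the pathway is best known from sebaceous glands, whose cells fill with triglycerides and wax esters and burst to release sebum, and from the adipocytes of the layer below the dermis. Keratinocytes run parts of it as well, to make the very long acyl chains of the epidermal barrier. In whole skin, fewer cells of a type and less RNA per cell cannot be told apart.

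The sequences upstream of Fasn and Thrsp are shown because these were the members that passed the test. Each line gives the 250 bases before the annotated gene start, from RefSeq on GRCm38.p6, 5′ to 3′ on the gene's strand (minus for both), at chr11:120824548-120824797 for Fasn and chr7:97417551-97417800 for Thrsp. Capitals mark the letters CCAAT on either strand (ATTGG on the other), which are known as the core of NF-Y sites.
Fasn: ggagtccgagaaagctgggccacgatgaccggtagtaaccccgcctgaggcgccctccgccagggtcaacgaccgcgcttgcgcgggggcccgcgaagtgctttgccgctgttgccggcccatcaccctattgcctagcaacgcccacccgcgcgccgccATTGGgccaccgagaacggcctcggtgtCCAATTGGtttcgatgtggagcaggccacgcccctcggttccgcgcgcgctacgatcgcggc
Thrsp: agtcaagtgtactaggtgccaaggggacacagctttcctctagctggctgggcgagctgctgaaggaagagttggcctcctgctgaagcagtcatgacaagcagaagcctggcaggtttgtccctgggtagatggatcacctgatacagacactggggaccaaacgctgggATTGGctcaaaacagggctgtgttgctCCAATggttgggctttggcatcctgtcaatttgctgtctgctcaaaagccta
The Fasn window held 3 matches, the first starting 90 bases and the second 62 bases before the gene start, and the second overlaps the next one. The Thrsp window held 2 matches, starting 79 and 52 bases before it. A window was found for 28 of the 36 genes, and 14 of these (50.0%) held CCAAT, beside 33.8% of all 32851 windows of this length. Of these 14 genes, 5 were lower with stretch at an unadjusted p under 0.05 in limma, beside 17 of all 36. Plin2 and Acss2, whose changes were positive, held CCAAT too. The Sp1 core GGGCGG was in the windows of 16 genes (57.1%, beside 32.7% of all windows), in neither Fasn nor Thrsp. The E-box letters CACGTG, which read the same on both strands, were found for Elovl5 alone (3.57% of the genes, beside 6.02% of windows). The sterol response letters TCACNCCAC were found in none of the 28, beside 1.05% of all windows. The shares of the members count genes, whereas the shares beside them count all windows and were not limited to measured genes. These letter matches describe the windows, and binding was not measured.

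Fasn and Thrsp fell with stretch, and no member rose. Genes called lower at an adjusted p under 0.05 made up 0.164% of all genes tested and genes called higher 0.082%. Beside these shares, 2 of the 36 members were called lower and 0 higher, and limma gave 1 member an unadjusted p under 0.05 in the higher direction. Whether they passed or not, 30 of 36 members had a negative change (83.3%, against 50.4% of all genes). The median change was -0.59 against -0.003 over all genes. Without adjustment 17 members were lower at p under 0.05, where 6.07% of all genes were, and the 1 that was higher, Plin2, compares with 6.92%. At an adjusted p under 0.1, which 0.605% of all genes passed in the lower direction, 7 members were lower: Thrsp, Fasn, Scd3, Elovl6, Far2, Elovl3 and Awat1. In the higher direction, which 0.477% of all genes passed, there were 0. The arrays of the groups did not overlap for 6 members, all of them lower with stretch (Fasn, Thrsp, Acacb, Scd3, Elovl5 and Mogat1), beside 2.15% of all genes without overlap in that direction and 2.38% in the other, where there were 0 members.

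The count of 2 moved when single arrays were left out, and so did the count over all genes. When stretch replicate 3 was left out it was 7, and with no-stretch replicate 4 left out it was 5. The omission of stretch replicate 1 or 5 gave 1, and that of any of the other 5 arrays (stretch replicates 2 and 4, no-stretch replicates 1, 2 and 3) gave 0. Without the 2 arrays of lowest weight, no-stretch replicate 3 and stretch replicate 1 (weights 0.579 and 0.547), the count of members was also 0, with a median change of -0.43. The median change stayed negative in all 9 fits that left out 1 array, between -0.73 and -0.49.

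**Figure D1:**
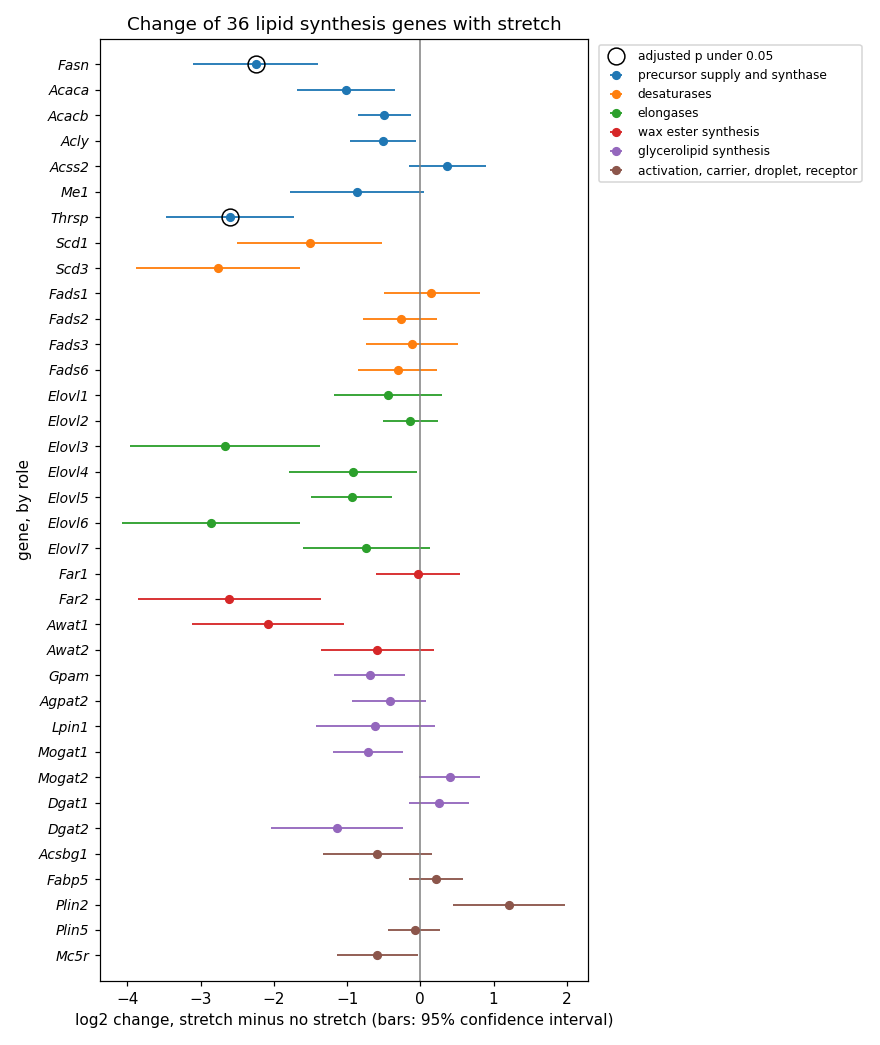
Log2 change of each of the 36 genes, stretch (n = 5) minus no stretch (n = 4), with its 95% confidence interval from the moderated fit; colours mark the role and black rings the genes past an adjusted p of 0.05. Fasn and Thrsp are ringed, 30 genes lie left of 0, and Plin2 lies farthest to the right at 1.21.

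The genes that supply precursors and build the first chain held both members that fell. Of 7 measured, 2 fell, 0 rose and 5 did not pass, with a median change of -0.87. Fasn, fatty acid synthase itself, was at 8.20, 9.05, 10.04, 8.45 and 9.62 in stretch replicates 1 to 5 and at 10.94, 11.73, 11.93 and 10.69 in no-stretch replicates 1 to 4. Every stretched array lay below every non-stretched one, with stretch replicate 3 nearest to the other group. The change was -2.25 (standard error 0.39, limma adjusted p = 0.045), which is 4.76-fold lower, and between -2.49 and -2.03 when single arrays were left out. Thrsp, a nuclear protein that promotes lipogenic gene expression and fatty acid synthesis, was at 7.04, 6.36, 7.40, 6.36 and 7.76 with stretch and at 9.11, 8.96, 10.79 and 9.47 without. The groups stood apart, and no-stretch replicate 3 was the highest array. Thrsp had a change of -2.60 (standard error 0.40, limma adjusted p = 0.029), 6.07-fold lower. Without the 2 arrays of lowest weight the change of Thrsp was -2.21 (limma adjusted p = 0.064) and that of Fasn -1.83 (limma adjusted p = 0.13), so neither passed. With single arrays left out, Fasn passed in 2 of 9 fits (limma adjusted p from 0.014 to 0.14), those without stretch replicate 3 or no-stretch replicate 4. Thrsp passed in 4 of 9 (from 0.022 to 0.086), where the omitted array was stretch replicate 1, 3 or 5, or else no-stretch replicate 4.

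None of the other 5 genes of this group passed, and 3 of them were lower at an unadjusted p under 0.05. Acaca, the cytosolic acetyl-CoA carboxylase, was at 9.16, 8.25, 9.40, 8.33 and 9.36 with stretch and at 10.20, 9.92, 10.31 and 9.22 without, a change of -1.01 (95% confidence interval up to -0.34, limma adjusted p = 0.20). No-stretch replicate 4 lay within the stretched range. Acacb, the mitochondrial-membrane carboxylase whose malonyl-CoA restrains fatty acid import for oxidation, was at 6.38 to 6.80 with stretch and 6.93 to 7.32 without. These ranges did not overlap, yet the change of -0.49 missed the threshold (limma adjusted p = 0.23). Acly, ATP citrate lyase, had a change of -0.51 with values of 12.12 to 13.08 against 12.97 to 13.37. For Me1, the cytosolic malic enzyme, the change was -0.87, and its values spread from 11.30 to 13.48 with stretch, the top one in replicate 3, against 12.36 to 13.67. Acss2, which makes acetyl-CoA from acetate, was the exception in sign, at 7.37 to 8.61 against 7.34 to 7.94, a change of 0.37 (limma adjusted p = 0.55).

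**Figure D2:**
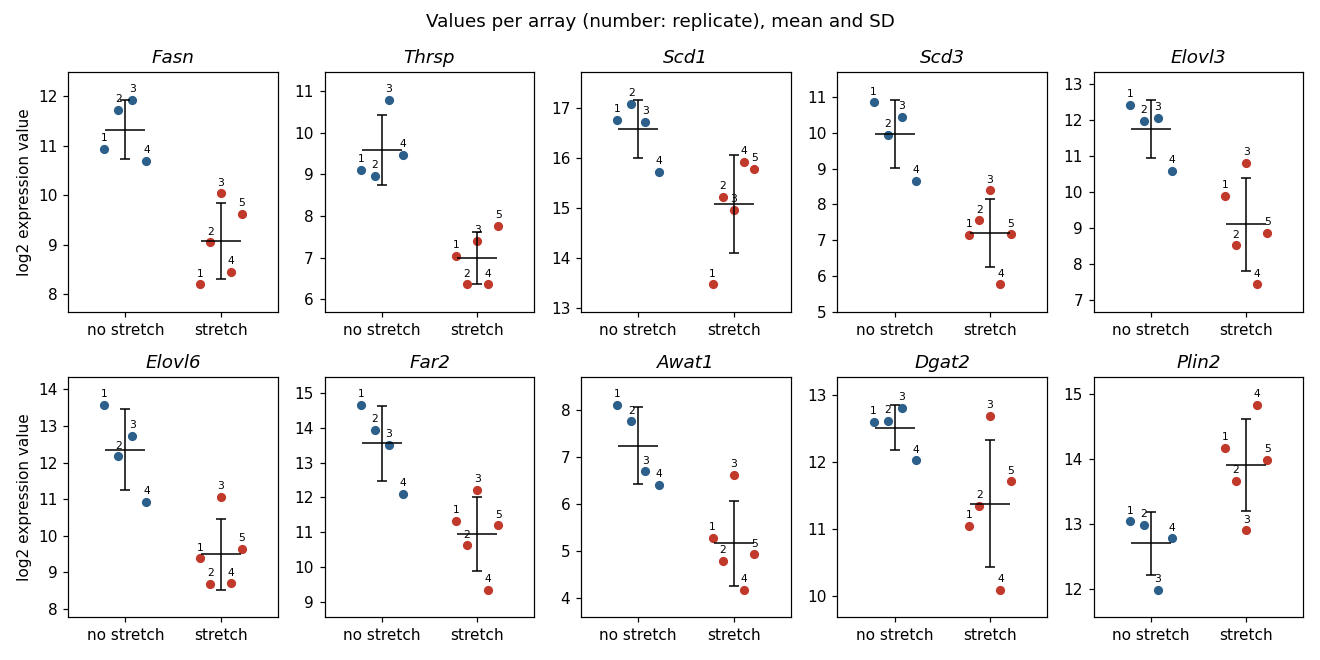
Log2 expression values of 10 genes on each array, blue for no stretch (n = 4) and red for stretch (n = 5), with the replicate number at each point and the mean and SD in black; the vertical axes differ between genes and do not start at 0. The groups stand apart for Fasn, Thrsp and Scd3, stretch replicate 3 is the highest stretched array for Elovl3, Elovl6, Far2, Awat1 and Dgat2, and Plin2 alone is higher with stretch.

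Among the desaturases, the stearoyl-CoA desaturases, which place a double bond at the delta-9 position, had the largest negative changes. None of the 6 measured passed the test in limma, 2 were lower at an unadjusted p under 0.05, and their median change was -0.29. Scd3, a stearoyl-CoA desaturase known from sebaceous glands, was at 7.15, 7.56, 8.39, 5.77 and 7.17 with stretch and at 10.85, 9.94, 10.44 and 8.66 without. The groups did not overlap, and the change of -2.76 (standard error 0.51, 6.79-fold lower) fell short at limma adjusted p = 0.053. Scd1, the main skin desaturase, whose loss in mice is known to shrink sebaceous glands, was at 13.47, 15.22, 14.96, 15.92 and 15.79 with stretch and at 16.77, 17.09, 16.73 and 15.73 without. Stretch replicate 1 was the lowest array and no-stretch replicate 4 lay inside the stretched range. Its change was -1.51 (limma adjusted p = 0.19), and -1.11 without stretch replicate 1. Scd1 and Scd3 are close copies, and how far the array separates them was not tested. Fads1 and Fads2, the delta-5 and delta-6 desaturases of polyunsaturated fatty acids, had changes of 0.15 (limma adjusted p = 0.87) and -0.27 (0.66). Fads3 had -0.11 and Fads6 -0.31, and the sign of Fads1 and of Fads3 turned when certain single arrays were left out.

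All 7 elongases had a negative change, with a median of -0.92. None passed the threshold in limma, and 4 were lower at an unadjusted p under 0.05. The largest differences were in Elovl6 and Elovl3. Elovl6, which takes palmitate to stearate, was at 9.38, 8.69, 11.06, 8.70 and 9.64 with stretch and at 13.58, 12.17, 12.74 and 10.93 without. The groups overlapped only through stretch replicate 3 and no-stretch replicate 4, and the change was -2.86 (standard error 0.55, 7.26-fold lower, limma adjusted p = 0.055). Elovl3, an elongase of sebaceous glands and hair follicles whose loss disturbs the coat lipids of mice, was at 9.88, 8.51, 10.81, 7.42 and 8.85 against 12.43, 11.97, 12.06 and 10.59. The same 2 arrays overlapped, at a change of -2.67 (standard error 0.60, limma adjusted p = 0.088). Elovl5, an elongase of polyunsaturated chains, was at 10.54, 10.39, 10.63, 10.53 and 11.13 against 12.36, 11.57, 11.20 and 11.23. Its ranges just missed each other, with a change of -0.94 and limma adjusted p = 0.15. Elovl4 makes the ultra-long acyl chains of barrier ceramides, and its values of 15.64, 15.75, 17.28, 15.22 and 16.87 overlapped 17.59, 16.80, 17.26 and 16.65 (change -0.92, limma adjusted p = 0.36). Elovl1 and Elovl7, which lengthen saturated and very long chains, had changes of -0.44 and -0.74. Elovl2, an elongase of long polyunsaturated chains, had -0.14 at values between 2.99 and 3.62, among the dimmest 25% of genes.

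Among the wax ester enzymes Far2 and Awat1 had large negative changes. None of the 4 measured passed in limma, 2 were lower at an unadjusted p under 0.05, and the median change was -1.34, the most negative of the 6 role groups. Far2, a fatty acyl-CoA reductase that makes the fatty alcohols of waxes, was at 11.33, 10.62, 12.22, 9.35 and 11.20 with stretch and at 14.66, 13.95, 13.51 and 12.11 without. Stretch replicate 3 exceeded no-stretch replicate 4 by a small margin and all other arrays kept apart, with a change of -2.61 (standard error 0.57, 6.11-fold lower, limma adjusted p = 0.084). Far1, the widely expressed reductase needed for ether lipids, was at 10.24 to 11.58 with stretch and 10.35 to 11.04 without. Its change was -0.03 (95% confidence interval up to 0.54), and it turned to 0.001 under median centring. The difference between the 2 reductases was not tested. Awat1, a wax synthase of sebaceous glands, was at 5.29, 4.80, 6.63, 4.18 and 4.93 against 8.12, 7.77, 6.70 and 6.41, a change of -2.08 (limma adjusted p = 0.094). Stretch replicate 3 again reached the non-stretched range. Awat2, the other wax synthase, had a change of -0.59 with values of 4.92 to 6.01 against 5.13 to 6.89 (limma adjusted p = 0.52).

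In glycerolipid and triglyceride synthesis 5 of 7 genes had a negative change, with a median of -0.62. None passed in limma, and 3 were lower at an unadjusted p under 0.05. Dgat2, which performs the last acylation of triglyceride synthesis, was at 11.04, 11.34, 12.69, 10.09 and 11.71 with stretch and at 12.60, 12.61, 12.81 and 12.02 without. Stretch replicate 3 lay within the non-stretched range and the other 4 stretched arrays below it (change -1.14, limma adjusted p = 0.27). Dgat1, which catalyses the same step, had a change of 0.25 at 5.67 to 6.21 against 5.23 to 6.01. Gpam, the mitochondrial acyltransferase of the first step, was at 10.95, 10.46, 11.24, 10.79 and 11.10 against 12.02, 11.44, 11.81 and 11.13 (change -0.69, limma adjusted p = 0.22). Mogat1, a monoacylglycerol acyltransferase, was at 4.58, 4.65, 4.94, 4.48 and 4.80 against 5.38, 5.01, 6.05 and 5.17. Its groups did not overlap, and its change was -0.71 (limma adjusted p = 0.20). Mogat2 went the other way with a change of 0.40 (limma adjusted p = 0.41), at 4.11 to 4.87 against 3.81 to 4.35. Agpat2, which makes phosphatidic acid, had -0.42, and Lpin1, the phosphatase that follows it, -0.62 with stretch replicate 1 lowest at 6.27.

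Of the 6 members with a positive change, Plin2 had the largest, and Mogat2, Acss2, Dgat1, Fabp5 and Fads1 lay between 0.15 and 0.40. This lipid droplet coat protein, found in most cells that store lipid, was at 14.17, 13.66, 12.90, 14.83 and 13.99 with stretch and at 13.04, 12.99, 11.99 and 12.78 without. Stretch replicate 3 was the only stretched array within the non-stretched range. The change of 1.21 (standard error 0.35, 2.31-fold higher) did not pass (limma adjusted p = 0.18). Without stretch replicate 3 the change was 1.46 and passed (limma adjusted p = 0.049). Of 9 macrophage markers 0 passed in limma (3 were higher at an unadjusted p under 0.05), and all 9 had a positive change. Among stretched arrays their mean relative to the no-stretch mean was highest in replicate 4 (1.48) and lowest in replicate 3 (-0.06), in which Plin2 was also highest and lowest. The mean of 8 neutrophil markers had its extremes in the same arrays (2.91 and 1.25), so this order was not particular to macrophage markers. Without stretch the orders matched only in part. Replicate 3 was lowest for Plin2 and for the means of the macrophage (-0.56) and neutrophil markers (-0.69). Both means were highest in replicate 4 (0.70 and 0.41), where Plin2 lay below replicates 1 and 2. The part of either cell type in the Plin2 difference was not tested. In the same role group, Fabp5, the epidermal fatty acid binding protein, was at 16.36 to 16.95 against 16.35 to 16.62 (change 0.22, limma adjusted p = 0.62). Acsbg1, an acyl-CoA synthetase, had a change of -0.59 at 12.16 to 13.45 against 12.67 to 13.88. Mc5r, the melanocortin receptor that drives sebum output in mice, was at 3.26, 3.39, 3.06, 3.36 and 2.75 against 4.16, 4.26, 3.52 and 3.07 (change -0.59, limma adjusted p = 0.36). Plin5, a coat protein of oxidative tissues, had -0.08, and both it and Mc5r lay among the dimmest 25% of genes, where changes are understated.

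**Figure D3:**
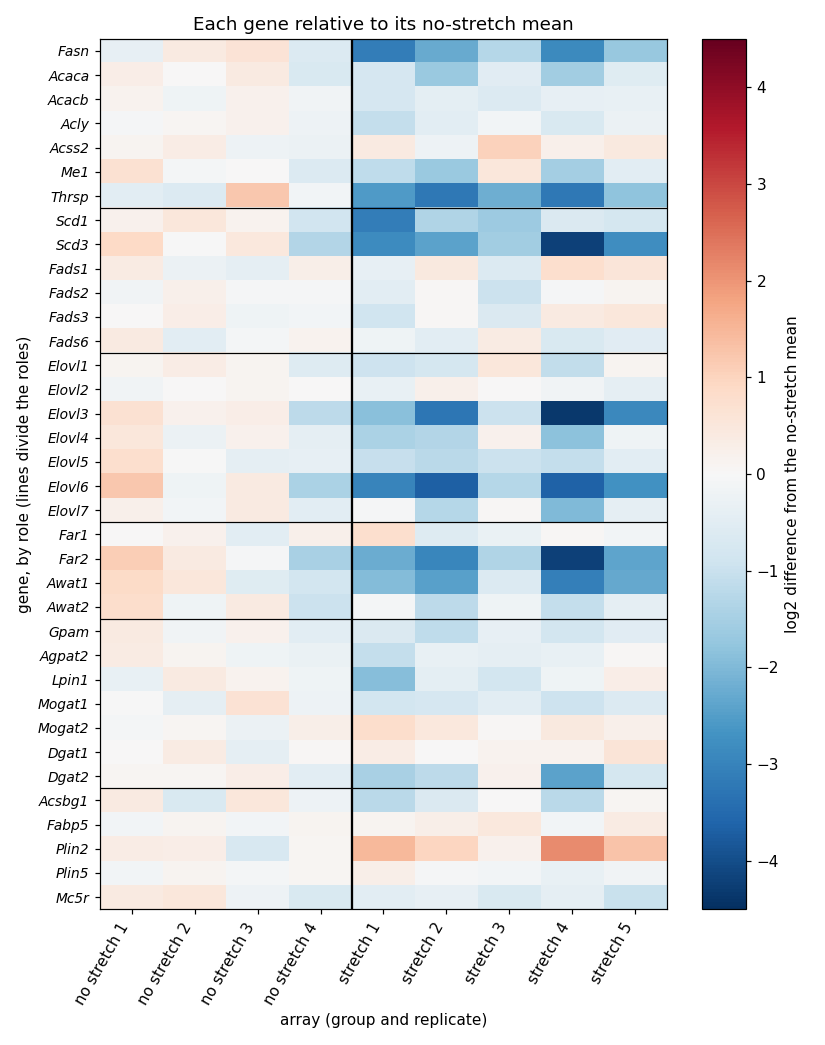
Log2 difference of each of the 36 genes from its no-stretch mean on each of the 9 arrays, blue for lower and red for higher, with lines between the roles. Fasn, Thrsp, Scd3, Elovl3, Elovl6, Far2 and Awat1 form the darkest blue rows in the stretched arrays, paler in replicate 3 except for Thrsp, and Plin2 is red.

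Certain arrays were often the highest or lowest of their group for the members. Stretch replicate 3 gave the highest stretched value for 18 of 36 members (50.0%, against 21.2% of all genes) and stretch replicate 4 the lowest for 14 (38.9%, against 19.3%). Without stretch, replicate 4 was lowest for 19 members (52.8%, against 21.1%) and replicate 1 highest for 14 (38.9%, against 25.8%). As a mean over the members, the difference from the no-stretch mean was -0.94, -0.98, -0.41, -1.14 and -0.56 in stretch replicates 1 to 5, and 0.27, 0.05, 0.07 and -0.39 in no-stretch replicates 1 to 4. The least lowered stretched array and the lowest non-stretched array thus lay close together.

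Markers of other cell types were measured beside the members. The skin label was borne out by the basal keratin Krt5, whose value was 17.40 ± 0.14 (SD, n = 5) in stretched and 17.48 ± 0.17 (SD, n = 4) in non-stretched skin. Of 9 sebaceous gland markers outside the member list, 8 had a negative change and 0 passed in limma (6 were lower at an unadjusted p under 0.05), with a median of -0.95; their mean log2 level was 7.43 to 8.67 with stretch and 8.64 to 9.41 without. That count of 0 was 3 when stretch replicate 3 was omitted, and 2 without no-stretch replicate 4, with arrays weighted by quality, with the replicate number as a block (replicates 1 to 4) or without the dimmest 25% of genes, all of them lower. It was 1 after quantile normalization or with a trended, robust variance, and 2 at an adjusted p of 0.1. Fa2h, a fatty acid hydroxylase needed for sebum, was at 7.78, 7.15, 8.55, 6.06 and 7.31 against 11.36, 10.51, 10.54 and 8.84. Its change of -2.95 was 7.71-fold lower, without overlap and with limma adjusted p = 0.0501. Krt79, a keratin of the gland's duct, had a change of -2.44 (limma adjusted p = 0.054), and Dgat2l6, an acyltransferase related to the wax synthases, -1.44 (0.21). Cidea and Mgst1, chosen here after their values were seen, are markers of sebocytes too, and had changes of -0.24 (95% confidence interval -0.77 to 0.28) and -0.08 (-0.51 to 0.35).

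Adipocyte markers were also on the lower side, 12 of 13 with a negative change, 7 of them at an unadjusted p under 0.05, and 0 past the threshold in limma. Their median change was -0.67, and their mean log2 level was 9.37 to 10.28 with stretch and 10.14 to 10.79 without. The count past the threshold was 4, all lower, with the replicate block, and 0 to 2 when single arrays were left out (2 without stretch replicate 5, and 1 where no-stretch replicate 4 or stretch replicate 1 or 3 was omitted). Plin1, the droplet coat of fat cells, had -1.51 (limma adjusted p = 0.053) and the adipokine gene Adipoq -1.75 (0.076), whereas the fatty acid carrier Fabp4, named after its values were seen, had 0.04 (-0.60 to 0.69). The array order was another one: the highest stretched mean was in replicate 5 (-0.15 relative to the no-stretch mean), above no-stretch replicates 1 (-0.26) and 4 (-0.29). Of 12 hair follicle markers, 3 fell (Lhx2, Cd34 and Dct), all 12 had a negative change, and the mean level was 5.29 to 5.87 against 6.29 to 7.16. Cd34 and Dct also mark fibroblasts and pigment cells. Over the 9 single omissions Cd34 passed every time, Dct in 4 and Lhx2 in 3. The count was 2 when stretch replicate 4 was omitted, and 1 when the omitted array was no-stretch replicate 1, 2 or 3 or stretch replicate 2 or 5. It was also 1 without the 2 arrays of lowest weight, where Lhx2 and Dct each had limma adjusted p = 0.075. Of 9 fibroblast markers 1 fell (Dpt) and all 9 were negative, with mean levels of 14.33 to 14.78 against 15.30 to 15.57. Dpt passed in 5 of the 9 single omissions, not without stretch replicate 2 or no-stretch replicate 1, 2 or 3, and it missed without the 2 arrays of lowest weight (limma adjusted p = 0.091). The fibroblast count was 2 without stretch replicate 1 and 3 with array weights. All 8 neutrophil markers had a positive change, with mean levels of 11.04 to 12.71 against 9.11 to 10.21, 6 of them at an unadjusted p under 0.05 and 0 past the threshold in limma. That count was 3 without stretch replicate 3 and with array weights, and 5 with the replicate block, all higher. All 9 macrophage markers were positive as well, at 11.79 to 13.32 against 11.29 to 12.55, with 1 past the threshold without stretch replicate 3 or with the replicate block. The 10 keratinocyte markers had a median change of -0.16 and the 10 skeletal muscle markers -0.06, with 0 called in either list; at an unadjusted p under 0.05, limma had 3 keratinocyte markers lower and 2 higher, and 1 muscle marker higher. With the replicate block 1 keratinocyte marker was called lower. Some keratinocyte markers lay near 19.93, the highest value on any array, where changes may be understated. Relative to the no-stretch mean, the keratinocyte markers averaged -0.90 in stretch replicate 4 and -0.33 to 0.08 in the other stretched arrays, and replicate 4 was the lowest stretched array for 9 of the 10. The members were lowest in that array too (-1.14). Whether a marker lay above background was not assessed, and the part of these cell types in the members' differences was not tested.

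**Figure D4:**
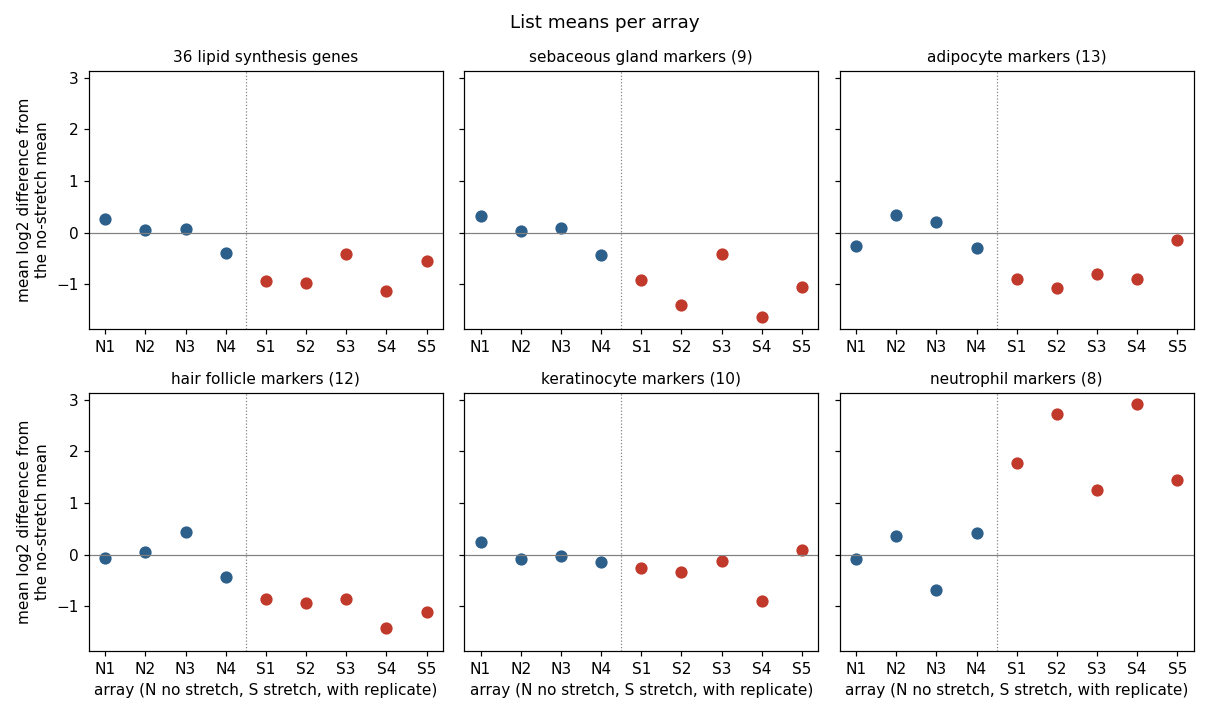
Mean log2 difference from the no-stretch mean for the 36 genes and for 5 marker lists on each array (N no stretch, n = 4; S stretch, n = 5), with the number of genes measured in brackets. The lipid synthesis genes and the sebaceous gland markers share their order over the stretched arrays apart from replicates 1 and 5, the adipocyte markers are highest among stretched arrays in replicate 5, and the neutrophil markers lie above 1 in all 5.

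Transcription factors and sensors that set lipogenic gene expression were counted beside the enzymes. Of 15 measured, 0 passed in limma, the median change was -0.15 and 3 were lower and 1 higher at an unadjusted p under 0.05. Srebf1, which encodes the main sterol-regulated activator of lipogenesis, was not found under its symbol and was not analysed here. Pparg, the receptor that drives sebocyte and adipocyte maturation, was at 9.30, 8.59, 9.30, 9.42 and 9.43 with stretch and at 10.38, 10.49, 9.29 and 9.67 without (change -0.75, limma adjusted p = 0.27). Scap, which escorts the sterol-regulated activators to the Golgi, had -0.69 (0.34) and the receptor partner Rxra -0.51 (0.35).

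Neighbouring steps of the pathway held 1 further gene that fell. Pcx, pyruvate carboxylase, which replenishes the oxaloacetate that leaves mitochondria as citrate, was at 5.01, 5.56, 5.81, 6.15 and 6.01 with stretch and at 7.17, 7.46, 7.47 and 6.60 without. The groups did not overlap, and the change was -1.47 (standard error 0.26, 2.76-fold lower, limma adjusted p = 0.0497). Among the 9 fits that left out an array it passed in 3, which omitted stretch replicate 1 or 3 or no-stretch replicate 4 (limma adjusted p from 0.036 to 0.15 over the 9), and it had -1.19 (limma adjusted p = 0.12) without both arrays of lowest weight. It also missed narrowly with median centring (limma adjusted p = 0.051), with all features tested (0.055) and with the replicate block (0.055). It was the 1 call among 12 measured genes of citrate supply, NADPH supply and mitochondrial synthesis, whose median change was 0.07. In that list Slc25a1, the mitochondrial citrate carrier, had -0.78 (limma adjusted p = 0.17), and Me2, the mitochondrial malic enzyme, 0.82 (0.24).

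Among 13 other genes of chain elongation and very long chains 0 passed in limma, 11 were negative, 5 were lower at an unadjusted p under 0.05, and the median was -0.41. Besides Fa2h, the ceramide synthase gene Cers4 was 3.99-fold lower without overlap (limma adjusted p = 0.0501). The count in this list was 2, both lower, without stretch replicate 3 or no-stretch replicate 4, and 3 with the replicate block. Tecr, the reductase that completes each elongation cycle, had -1.09 (0.20). Of 15 other acyltransferases and acyl-CoA synthetases 0 passed, with a median of -0.07 and, at an unadjusted p under 0.05, 3 lower and 2 higher. Agpat4, Acsl5 and Dgat2l6 had the smallest p-values, all with a negative change, and 1 gene was called lower without stretch replicate 3. Of 9 genes of droplet breakdown and fatty acid uptake 0 passed, with a median of -0.52 and, at an unadjusted p under 0.05, 4 lower and 1 higher. Pnpla3, a lipase-family gene that is itself induced by lipogenic signals, had -1.40 (limma adjusted p = 0.053), and Mgll, monoacylglycerol lipase, -1.70 (0.081), each without overlap. The count there was 2 without stretch replicate 3 or no-stretch replicate 4, 1 without stretch replicate 1 or 5, and 4 with the replicate block, all lower. Lpl, lipoprotein lipase, had -0.94 (0.14). Fatty acid oxidation, the opposing pathway, had 0 of 17 genes past the threshold, 3 lower at an unadjusted p under 0.05, and a median change of -0.11, with values between -0.79 for Hadh and 0.14 for Acadl.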

How the data were processed

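Total RNA of back skin was labelled from 6 ug as biotinylated cRNA and hybridised to Affymetrix arrays, per the labels' protocols. The deposited values are log2 expression values per transcript cluster for 22206 features on 9 arrays; the authors used RMA and Transcriptome Analysis Console, per the submitters' processing notes. RMA usually normalizes quantiles and compresses low values, so changes of dim genes are understated. Which genome build, annotation and filters were used is not given in the sources used here. Detection was not assessed. Symbols came from the platform annotation (19572 features with 1 symbol, 2634 unnamed); looking them up through Entrez identifiers in RefSeq changed 0. Where a gene had several features (55 genes), the one of highest mean was kept. Array medians lay between 5.81 and 5.99, and no array repeated another.

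Stretch minus no stretch was tested two-sided for 19505 genes in R 4.3.3 by limma 3.58.1 (lmFit, then eBayes), without covariate. The Benjamini-Hochberg adjustment ran over these genes at a threshold of 0.05; the number of arrays limits precision (median standard error 0.21). The fit was tested on simulated data. Motif letters were counted in RefSeq upstream windows. The members and lists were chosen with earlier results of these data known, and their counts have no set test. The lists outside the members share some genes, so their counts are not separate observations. Among these, Lpl is in the adipocyte and droplet breakdown lists, and Fa2h, Dgat2l6 and Pparg are each in the sebaceous list and a pathway list. Named were every member and, of each pathway list and the sebaceous, adipocyte and hair follicle lists, genes past the threshold or at most the 3 of smallest p; Srebf1, Acadl, Krt5, Cidea, Mgst1 and Fabp4 were named outside this rule. Alternatives were other scalings, filters, features, variance models, array weights, a replicate block, an adjusted p of 0.1 and the omission of arrays.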

Additional observations from a re-analysis of the deposited data

Results flagged for a closer look

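Of 126 groups of values tested, 3 held an array far from the rest of its group. The test took the gap between the outermost array and its neighbour at a 95% level, which flags about 1 group in 20 by chance. The share found was below that rate. Pparg was at 8.59 in stretch replicate 2 and at 9.30 to 9.43 in the other stretched arrays. Acsl5, an acyl-CoA synthetase, was at 11.65 in stretch replicate 2 and at 12.40 to 12.61 in the others. Lpl was at 12.22 in stretch replicate 5, against 10.98 to 11.21, which puts that array at the level of the non-stretched ones. The adipocyte markers were also highest among stretched arrays there, but Lpl is in that list and adds to its mean. None of the 36 lipid synthesis genes, which made up 72 of the groups, had such an array.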

How the results depend on the processing

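The median change of the members was negative under all 19 alternatives, from -0.73 to -0.43. Some of these could not change it. An adjusted p of 0.1 and a trended, robust variance leave the changes as they are. Averaged features and all features do so too, as each measured member has 1 feature. The count of members called lower, 2, moved with most of the 19. It was 4 after quantile normalization and without the dimmest 25% of genes (each adding Scd3 and Elovl6), 6 with array weights, 7 at an adjusted p of 0.1, 1 with all features tested (Fasn at adjusted p = 0.055) and 0 without the 2 arrays of lowest weight, an alternative chosen after seeing the data. It was 3 with a trended, robust variance and 2 with median centring or averaged features. Leaving out single arrays moved it between 0 and 7, and the count called higher between 0 and 1 (Plin2 without stretch replicate 3). With the replicate number as a block (replicates 1 to 4) it was 6 and the median change -0.69. Same-numbered arrays deviated together with r of -0.062, -0.018, 0.064 and 0.34 across genes, and 1 of 4 stretched arrays correlated best with its own number. These 4 values cannot settle whether the numbers mark pairs, and the main fit did not pair them. Genes called over the whole table, in either direction, were 48 in the main fit, 221 with the block and between 2 and 195 when single arrays were left out. They were 75 after quantile normalization, 105 without the dimmest 25% of genes, 157 with array weights and 15 without the 2 arrays of lowest weight. The sign turned for 3 members whose change was near 0. Far1 went to 0.001 under median centring and lay between -0.23 and 0.10 when single arrays were left out. Fads3 went to 0.023 with array weights and 0.026 without the 2 arrays of lowest weight, and lay between -0.26 and 0.086 over the omissions. Fads1 reached -0.001 in 1 omission, that of stretch replicate 4, and otherwise stayed up to 0.34. The other 33 members kept their sign in every alternative that could change it. The cause of these shifts was not tested. No scaling moved the median of all genes by over 0.1. The number of arrays and unknown signal over background limit what can be said of dim genes.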
